A study of Mus musculus with 9 samples.

Results

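Transcripts of 9 genes that build and hold the metaphase II arrest of the mouse egg were measured by poly-A RNA-seq in pools of metaphase II (MII) oocytes. The genes were chosen by symbol, by a rule that uses no measured value, though with earlier results of these data known. They were Mos, Fbxo43, Cdk1, Ccnb1, Ccnb2, Ccnb3, Cdc20, Fzr1 and Map2k1. They are 9 of the 30153 genes in the joined count matrix, each symbol matched a single row, and all 9 passed the low-count filter in every comparison. All oocytes came from 4-week-old Sycp3CreERT2/+; Rosa26nT-nG/+ females of mixed background, so every group carried both the Cre and the reporter allele. The Cre is expressed from Sycp3, a gene of the meiotic chromosome axis, and is active only with tamoxifen, and the nT-nG reporter labels nuclei with tdTomato before recombination by Cre and with GFP after it. Each female received 5 IU PMSG and, 48 h later, 5 IU hCG, and eggs were recovered from the oviduct 13 h after hCG, stripped of the cumulus by hyaluronidase and sorted by hand according to their fluorescence. The GFP High, GFP Low and RFP groups had 3 libraries each, with 15, 15 and 16 oocytes per pool for GFP High, 49, 52 and 57 for GFP Low, and 87, 88 and 100 for RFP. The labels do not tie a pool size to a library or say that pools came from separate females, so the p-values measure only the spread between these samples, which may be technical. When tamoxifen was given is not used here.

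An ovulated mouse egg waits for the sperm at metaphase of the second meiotic division because the kinase Cdk1, bound to a B-type cyclin, stays active. Cyclin B is destroyed when the anaphase-promoting complex, a ubiquitin ligase, is switched on by its activator Cdc20, and Fzr1 (also called Cdh1) is the activator used before maturation and after exit from mitosis. The arrest is kept by Emi2, the product of Fbxo43, which blocks the anaphase-promoting complex, and by the Mos kinase, which acts through the MAP kinase kinase MEK1, the product of Map2k1. The fertilization calcium signal removes Emi2, cyclin B is degraded and meiosis is completed. A fully grown oocyte transcribes little, so an MII egg works with stored messengers, and many of these, including those of Mos and cyclin B1, are known for being switched on by lengthening of their poly-A tails.

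Library totals ranged from 19381677 to 27746256 counts, and the scaling factors of the libraries lay between 0.986 and 1.006. The labels of the groups were matched by the reporter, with eGFP at 869 to 1081 counts for GFP High, 282 to 662 for GFP Low and 0 to 16 for RFP. Counts of tdTomato were 0 to 2, 16 to 35 and 46 to 94 in the same order, so every GFP Low library had counts of both reporters. All 17 oocyte markers had counts in every library, at a summed 15265 to 17606 CPM (counts scaled to a common library size) for GFP High, 14392 to 15414 for GFP Low and 14490 to 15106 for RFP. The 20 cumulus and granulosa markers summed to 112.9 to 210.3 CPM for GFP High, 138.1 to 161.9 for GFP Low and 125.6 to 209.7 for RFP. Most of that sum came from Nr5a2, and the sum of the other cumulus and granulosa markers was 10.6 to 52.2, 11.2 to 57.7 and 10.1 to 79.7 CPM in the same order. Of the 20 markers, Amh and Ereg were at 0 in 8 of the 9 libraries, while Nr5a2, Star, Runx2 and Kitl had counts in all 9 and Vcan, an extracellular matrix gene of the expanding cumulus, reached 15.0 CPM. GFP High 2 had the fewest genes with 5 or more counts, 13773 against 15969 to 17663 in the other libraries, and the most cumulus and granulosa markers at 0, 14 of 20.

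The transcripts enter these libraries by their poly-A tails, and the letters that direct tail addition lie at the extreme 3′ end. The ends of the 3 B cyclins are therefore shown first. With them are those of Mos and Cdc20, the 2 genes whose 3 groups did not overlap in CPM. Sequences are the sense strand of the principal GENCODE M21 transcript on GRCm38, 5′ to 3′, and all of these genes lie on the minus strand. Capitals mark the polyadenylation signal (AATAAA or ATTAAA) and the cytoplasmic polyadenylation element (TTTTAT or TTTTAAT), the binding letters of CPEB1, a protein that controls tail length in oocytes. Only the transcript strand was searched, over the last 100 bases.
Mos, 3′ UTR, chr4:3870661-3870690: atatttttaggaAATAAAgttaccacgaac
Ccnb1, 3′ UTR, chr13:100778656-100778685: ctttatgttgctAATAAAcatagttttcga
Ccnb2, 3′ UTR, chr9:70407693-70407722: gtattgaaggaaAATAAAgctattgatcta
Ccnb3, 3′ UTR, chrX:6979654-6979683: tttaaaaaatttAATAAAatacaatggtta
Cdc20, 3′ UTR, chr4:118432911-118432940: TTTTATTTTATtttttctAATAAAgttcgt

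A polyadenylation signal was found in the last 100 bases of 8 of the 9 genes, all but Fzr1. It was in 78.6% of 19366 transcript ends with a 3′ UTR of at least 100 bases. Among the 5532 of these ends from genes of 20 CPM or more it was in 82.1%. The cytoplasmic polyadenylation element was found in this window in Cdc20 and Ccnb3, against 17.9% of the ends and 21.9% at 20 CPM or more. In Cdc20 there were 2 such elements, which overlap each other and end 7 bases before the signal. Its 3′ UTR has only 62 bases, so Cdc20 itself is not among those ends. Of 460 genes with a 3′ UTR of like length, 1.74% had an element and a signal within the same 30 bases. Fbxo43 holds such a pair further inside its 3′ UTR of 1584 bases, 1010 bases before the annotated end, as do 19.7% of 2924 genes with a 3′ UTR of like length.
Fbxo43, 3′ UTR, chr15:36151056-36151085: aatgggaaTTTTATttAATAAActcctata
Over whole 3′ UTRs the element occurred 6 times in Fbxo43, 4 times in Ccnb1, 2 times each in Cdk1, Map2k1 and Cdc20, and 1 time each in Ccnb2 and Ccnb3. It was not found in Mos, whose 3′ UTR is annotated at 126 bases, or in Fzr1. The Pumilio element TGTANATA was in none of the 9 windows, against 4.35% of the ends with a 3′ UTR of at least 100 bases. These matches describe letters in the annotation and were not tested against the counts.

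The 9 genes are spread over 6 chromosomes, and on GRCm38 all are transcribed from the minus strand. Mos is a single exon at chr4:3870657-3872105, so its reads cross no intron, and Cdc20 lies on the same chromosome at chr4:118432901-118437352 with 10 exons. The B cyclins are at chr13:100778650-100786570 (Ccnb1, 9 exons), chr9:70407692-70421547 (Ccnb2, 9 exons) and chrX:6979652-7041619 (Ccnb3, 14 exons). Cdk1 (chr10:69335146-69352938, 8 exons) and Fzr1 (chr10:81366222-81378516, 14 exons) share chromosome 10. Fbxo43 is at chr15:36150060-36164884 with 5 exons and Map2k1 at chr9:64185770-64253631 with 11 exons.

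Compared per length, the B1 and B2 cyclins were the most abundant of the 9 messengers and Cdk1 itself the least. Levels were computed as CPM per kb of the gene length in the deposited tables, and are given as mean ± SD over the 9 libraries. Ccnb1, the main mitotic cyclin partner of Cdk1, stood at 87.5 ± 5.60 CPM per kb, rank 582 of 15857 genes. Ccnb2, a B cyclin that can stand in for it, stood at 75.7 ± 8.33 CPM per kb, below Ccnb1 in 7 of 9 libraries, so that these neighbours were not separated by their spread. Mos followed at 49.97 ± 7.15 and Map2k1, the next kinase of its pathway, at 46.7 ± 4.47 CPM per kb, with Mos higher in 6 of 9 libraries. Fbxo43 came next at 26.7 ± 4.19 CPM per kb, below Map2k1 in all 9 libraries and with no overlap of the ranges. Cdc20 at 23.6 ± 2.56 and Fzr1 at 21.9 ± 2.90 CPM per kb overlapped Fbxo43 and each other, with Cdc20 above Fzr1 in 5 of 9 libraries. Ccnb3, a divergent cyclin needed to leave the first meiotic division, stood at 13.9 ± 1.81 CPM per kb, under Fzr1 in all 9 libraries. Cdk1 was the lowest at 11.5 ± 1.01 CPM per kb, rank 4013 of 15857, below Ccnb3 in 8 of 9 libraries.

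**Figure D1:**
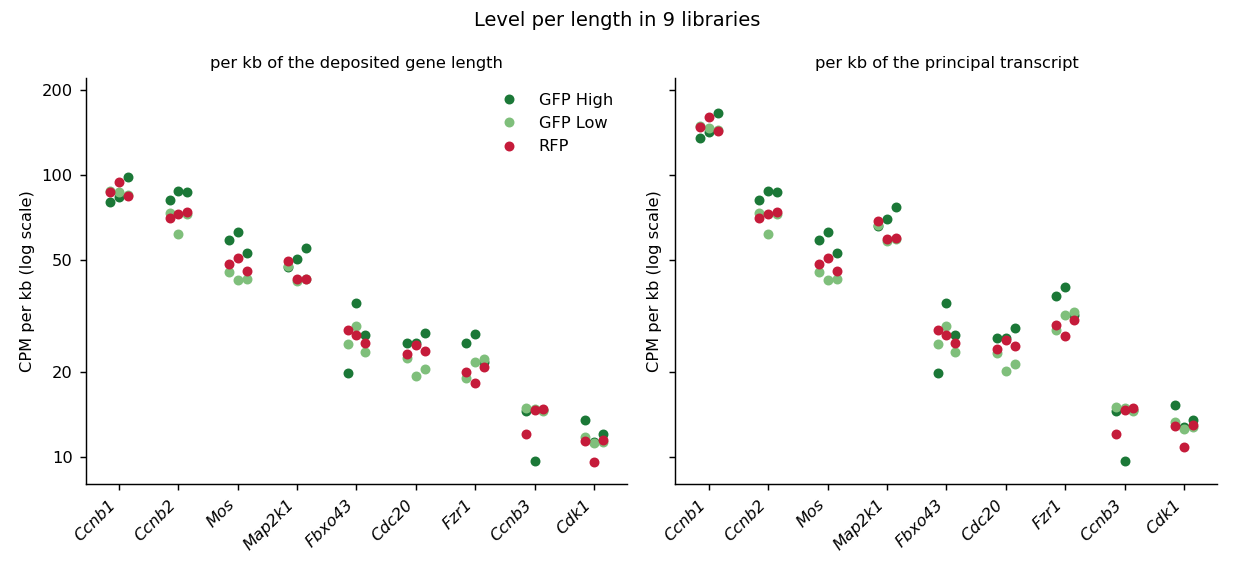
CPM per kb (log axis) of the 9 genes, 1 point per library coloured by group, with the deposited gene length in the left panel and the length of the principal transcript in the right panel. Ccnb1 and Ccnb2 are at the top and Ccnb3 and Cdk1 at the bottom in both panels, and Mos and Map2k1 trade places between the panels.

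The order depends in part on the length that is used. The deposited gene length equals the union of all annotated exons for all 9 genes, which for genes with several transcripts can be longer than any of them. With the principal transcript in its place, Ccnb1 stood at 148.2 CPM per kb and was above Ccnb2, at 75.7, in all 9 libraries without overlap. Map2k1, at 65.0 CPM per kb, then came before Mos at 49.97, and Fzr1, at 32.1, before Fbxo43 at 26.7 and Cdc20 at 24.6. Ccnb3 at 13.9 and Cdk1 at 13.0 CPM per kb kept the last places, with Ccnb3 higher in 6 of 9 libraries. Among the B cyclins, summed per kb of the deposited length, Ccnb1 made up 46.9% ± 1.94 for GFP High, 50.8% ± 2.09 for GFP Low and 50.6% ± 1.72 for RFP (mean ± SD, n = 3). Ccnb2 made up 46.1% ± 2.48, 40.5% ± 2.46 and 41.5% ± 1.35, and Ccnb3 6.97% ± 1.49, 8.67% ± 0.369 and 7.92% ± 0.734, in the same order of groups.

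None of the 9 genes passed the test in any of the 3 comparisons, which ask whether eggs with different reporter histories carry different amounts of these messengers. The compared pools differ in the number of oocytes, and less RNA per egg cannot be told apart from fewer eggs, since each library was scaled to its own total. In GFP High versus RFP, 0 of the 9 genes were called at an adjusted p of 0.05 by edgeR's quasi-likelihood test with Benjamini-Hochberg adjustment, where 0.0135% of 14829 genes were. GFP Low versus RFP also gave 0 of 9, beside 0.0197% of 15199 genes, and GFP High versus GFP Low gave 0 of 9, beside 0% of 14785 genes. The reporter eGFP was among the called genes in both comparisons with RFP, and the eggs were sorted by reporter fluorescence. At an unadjusted p under 0.05 there were 2 genes in GFP High versus RFP (Ccnb2 and Fzr1), beside 4.09% of all genes, 0 in GFP Low versus RFP, beside 2.62%, and 3 in GFP High versus GFP Low (Mos, Ccnb2 and Cdc20), beside 3.77%. DESeq2 and limma-voom also called 0 of the 9 in each comparison.

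The median absolute log2 difference of the 9 genes was 0.18 in GFP High versus RFP, 0.08 in GFP Low versus RFP and 0.21 in GFP High versus GFP Low. Over all genes of 20 CPM or more it was 0.12, 0.06 and 0.11 in the same order. The fitted log2 difference farthest from 0 was 0.34 in GFP High versus RFP (Fzr1), -0.21 in GFP Low versus RFP (Cdc20) and 0.42 in GFP High versus GFP Low (Mos). The 95% intervals of all 9 genes together ran from -0.50 to 0.62, from -0.46 to 0.33 and from -0.56 to 0.69 on the log2 scale, in the same order. The point estimate favoured GFP High over RFP for 7 of 9 genes and GFP High over GFP Low for 8 of 9, where 49.1% and 48.9% of genes of 20 CPM or more were higher. The median log2 difference of the 9 genes was 0.18 in GFP High versus RFP and 0.21 in GFP High versus GFP Low, beside -0.00555 and -0.00479 over all genes tested, and these comparisons share the GFP High libraries. In GFP Low versus RFP, 3 of 9 were higher, where 49.97% of the genes of 20 CPM or more were, and the median was -0.03, beside -0.00409 over all genes tested. The 17 oocyte markers also had higher point estimates in GFP High, 14 of 17 against RFP with a median of 0.12 and 15 of 17 against GFP Low with a median of 0.13 on the log2 scale, and their part in the members' values was not tested.

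**Figure D2:**
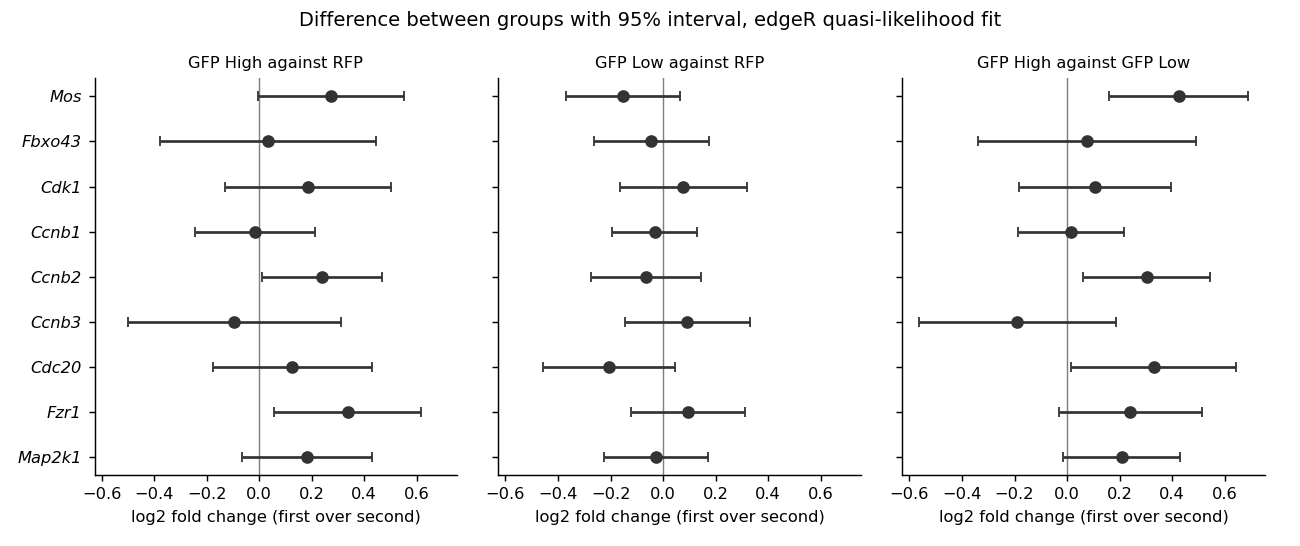
Log2 difference between groups (point) with its 95% interval (bar) for the 9 genes in each comparison, from edgeR's quasi-likelihood fit, positive where the first-named group is higher. The intervals of Ccnb2 and Fzr1 in GFP High versus RFP and of Mos, Ccnb2 and Cdc20 in GFP High versus GFP Low lie above 0 before adjustment for the number of genes tested.

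Mos, which starts the kinase chain that holds the arrest, had the largest difference of the 9 genes, between GFP High and GFP Low. Its level was 85.6, 91.0 and 76.4 CPM in GFP High 1, 2 and 3, 65.4, 61.3 and 62.0 CPM in GFP Low 1, 2 and 3, and 70.3, 73.6 and 66.1 CPM in RFP 1, 2 and 3. All GFP High libraries were above all RFP libraries, and all RFP libraries above all GFP Low libraries, though the closest libraries of neighbouring groups were near each other. The mean was 84.3 ± 7.38 CPM for GFP High, 62.9 ± 2.18 for GFP Low and 70.0 ± 3.72 for RFP (SD, n = 3). The log2 difference between GFP High and GFP Low was 0.42 (SE 0.12, 95% interval 0.16 to 0.69), which is a 1.34-fold higher level, and the gene had the 37th smallest p of 14785. That p was 0.00515 before and 0.998 after adjustment over all genes by edgeR, while DESeq2 gave an adjusted p of 0.279 and limma-voom one of 0.827. The log2 difference of Mos was 0.27 (SE 0.12) between GFP High and RFP and -0.15 (SE 0.10) between GFP Low and RFP, neither called. Leaving out single libraries gave 0.36 to 0.48 for GFP High versus GFP Low, the lowest of these without GFP High 2. In the authors' deposited table for that pair, Mos has a log2 fold change of 0.44 and an adjusted p of 0.279.

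Map2k1, which encodes the kinase that Mos phosphorylates, was at 160.3, 170.3 and 187.0 CPM in GFP High, 161.5, 142.4 and 144.9 CPM in GFP Low and 167.4, 145.0 and 145.3 CPM in RFP. Outside GFP High, the libraries GFP Low 1 and RFP 1 reached into the GFP High range. The log2 difference was 0.21 (SE 0.10) for GFP High versus GFP Low, 0.18 (SE 0.11) against RFP and -0.03 (SE 0.09) for GFP Low versus RFP, and none was called. On the opposite strand Map2k1 shares 2457 bases with Gm48855, at most 45 counts in any library, and 1162 bases with Uchl4, at most 36 counts. The strand setting of the counting is not given in the sources used here.

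Fbxo43, the Emi2 gene, had nearly equal group means, and of its 3 groups GFP High had the widest spread. It was at 80.2, 141.7 and 109.3 CPM in GFP High 1, 2 and 3, 101.3, 117.9 and 95.3 CPM in GFP Low and 113.4, 108.9 and 102.4 CPM in RFP. Both the lowest and the highest of the 9 libraries were in GFP High, and the groups overlapped. The means were 110.4 ± 30.8, 104.8 ± 11.7 and 108.3 ± 5.56 CPM in the order GFP High, GFP Low and RFP (SD, n = 3). The log2 difference was 0.03 (95% interval -0.38 to 0.44) for GFP High versus RFP, -0.04 for GFP Low versus RFP and 0.08 for GFP High versus GFP Low. Without GFP High 2 the sign turned, to -0.19 against RFP and -0.15 against GFP Low. Over the libraries within groups its SD was 0.258 on the log2 scale, and 92.4% of genes of similar CPM had a smaller one.

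**Figure D3:**
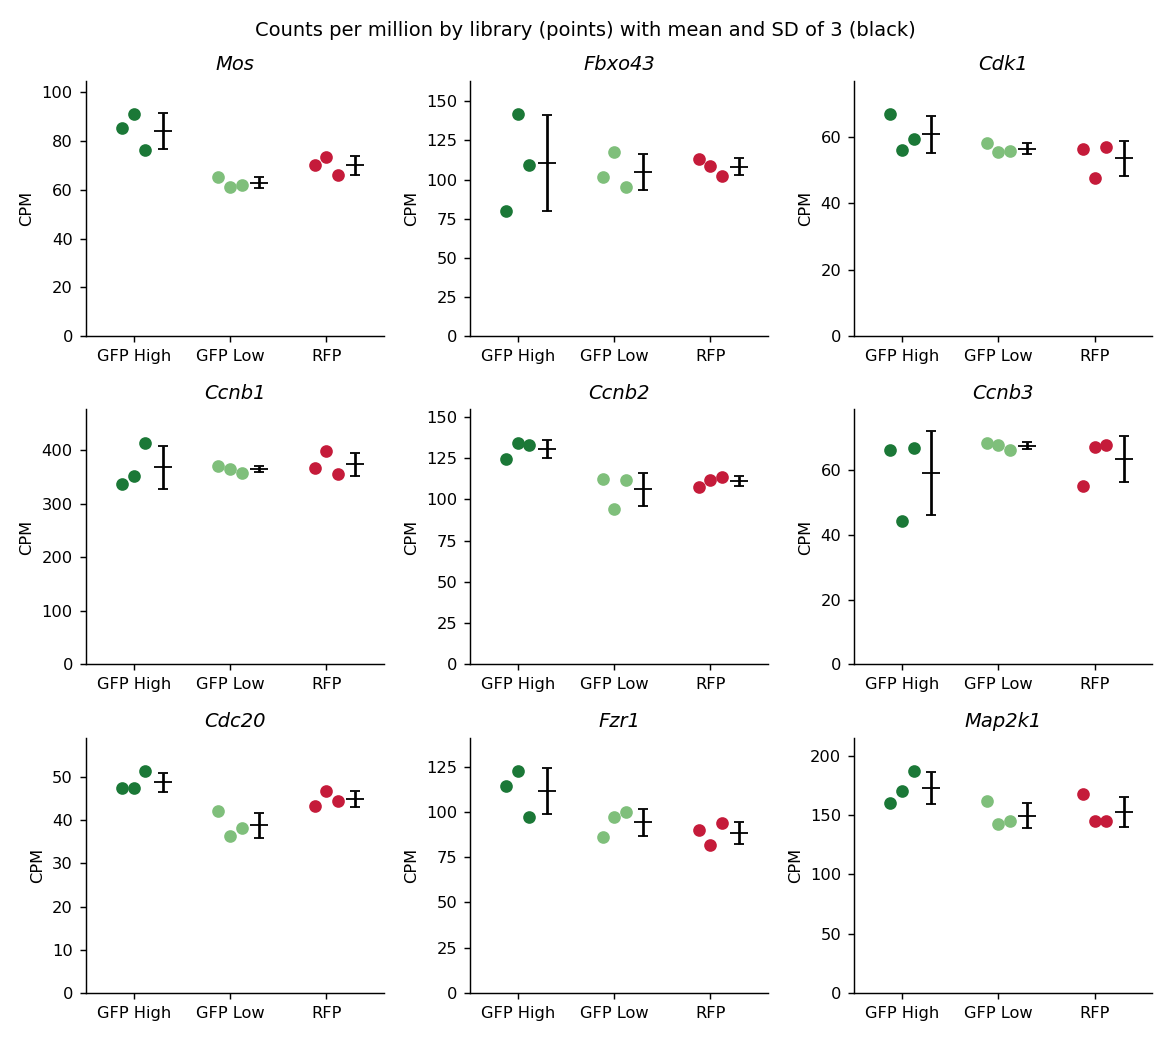
CPM of each gene in the 9 libraries (points, replicate 1 to 3 from left to right) with the mean and SD of 3 libraries in black, on axes that start at 0. Mos and Cdc20 show 3 groups without overlap, Ccnb2 shows GFP High above the other libraries, and Fbxo43 and Ccnb3 show their widest spread in GFP High.

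Cdk1, the kinase subunit, was at 66.7, 55.9 and 59.4 CPM in GFP High, 58.2, 55.2 and 55.8 CPM in GFP Low and 56.4, 47.4 and 56.8 CPM in RFP. The 3 groups overlapped, with RFP 2 the lowest and GFP High 1 the highest. On the log2 scale, GFP High differed from RFP by 0.19 (SE 0.14), GFP Low from RFP by 0.08 (SE 0.11) and GFP High from GFP Low by 0.11 (SE 0.13), none called.

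Ccnb1, the most abundant of the 9 messengers, had nearly equal group means. It was at 337.4, 352.5 and 414.2 CPM in GFP High, 370.8, 366.0 and 358.6 CPM in GFP Low and 367.1, 398.3 and 355.9 CPM in RFP. The GFP High libraries held both the lowest and the highest value, and the group means were 368.1 ± 40.7, 365.1 ± 6.15 and 373.8 ± 22.0 CPM in the order GFP High, GFP Low and RFP (SD, n = 3). The 95% interval of the log2 difference was -0.25 to 0.21 for GFP High versus RFP, -0.19 to 0.13 for GFP Low versus RFP and -0.19 to 0.22 for GFP High versus GFP Low. Reads of Ccnb1 could be divided with 3 processed pseudogenes that match its transcript over about 1290 bases, Ccnb1-ps at 99.2%, Gm12856 at 98.1% and Gm8416 at 97.3% identity. Their mean levels were 7.22, 10.3 and 1.47 CPM. Their sum was 3.60% to 5.64% of the Ccnb1 value in 8 libraries and 9.94% in GFP High 2. With the copies added, Ccnb1 was at 353.5, 387.6 and 429.1 CPM in GFP High, 391.7, 381.7 and 372.4 CPM in GFP Low and 385.4, 418.9 and 371.3 CPM in RFP, and the groups still overlapped.

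Ccnb2 was higher in every GFP High library than in any other library, without being called. It was at 124.4, 134.4 and 133.2 CPM in GFP High, 112.3, 94.3 and 111.7 CPM in GFP Low and 107.7, 111.8 and 113.6 CPM in RFP. GFP Low and RFP overlapped. The log2 difference was 0.24 (SE 0.10, 95% interval 0.01 to 0.47) between GFP High and RFP, with an adjusted p of 0.997 by edgeR. Between GFP High and GFP Low it was 0.30 (SE 0.11, 95% interval 0.06 to 0.55), with an adjusted p of 0.998. The log2 difference of GFP Low versus RFP was -0.06 (SE 0.10).

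Ccnb3 was at 66.3, 44.2 and 66.8 CPM in GFP High, 68.4, 67.8 and 66.2 CPM in GFP Low and 55.1, 67.1 and 67.8 CPM in RFP. In 7 of the 9 libraries the level lay between 66.2 and 68.4 CPM, and in GFP High 2 and RFP 1 it lay below them. Its log2 difference was -0.19 (SE 0.17) for GFP High versus GFP Low, -0.09 (SE 0.18) for GFP High versus RFP and 0.09 (SE 0.11) for GFP Low versus RFP. Without GFP High 2 the first of these was -0.02 and that against RFP 0.07.

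Cdc20, which switches on the anaphase-promoting complex at fertilization, was at 47.4, 47.4 and 51.3 CPM in GFP High, 42.0, 36.3 and 38.3 CPM in GFP Low and 43.2, 46.8 and 44.5 CPM in RFP. Its groups stood in the same order as those of Mos, with GFP High above RFP and RFP above GFP Low in every library. The group means were 48.7 ± 2.26, 38.9 ± 2.92 and 44.8 ± 1.82 CPM in the order GFP High, GFP Low and RFP (SD, n = 3). The log2 difference was 0.33 (SE 0.14, 95% interval 0.01 to 0.64) for GFP High versus GFP Low, with an adjusted p of 0.998 by edgeR. It was 0.13 (SE 0.14) for GFP High versus RFP and -0.21 (SE 0.12) for GFP Low versus RFP. Only 1.26% of genes of similar CPM had a smaller spread within groups than Cdc20, whose SD was 0.0800 on the log2 scale, and 6.97% had a smaller one than Mos, at 0.0907. The gene overlaps Elovl1 on the opposite strand by 53 bases, and Elovl1 reached 589 counts, beside 814 to 1297 for Cdc20. Its 2 pseudogene copies had at most 15 counts in any library.

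Fzr1, the other activator, was at 114.1, 122.5 and 97.4 CPM in GFP High, 85.9, 97.3 and 100.0 CPM in GFP Low and 89.9, 81.9 and 93.8 CPM in RFP. All GFP High libraries were above all RFP libraries, and GFP Low overlapped both. The log2 difference between GFP High and RFP was 0.34 (SE 0.13, 95% interval 0.06 to 0.62), the largest of the 9 genes in that comparison, with an adjusted p of 0.997 by edgeR. It was 0.26 without GFP High 2. Its log2 difference was 0.24 (SE 0.12) for GFP High versus GFP Low and 0.09 (SE 0.10) for GFP Low versus RFP.

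GFP High was above RFP without overlap in 4 of the 9 genes (Mos, Ccnb2, Cdc20 and Fzr1) and below in 0 of 9. Of 6071 genes of 20 CPM or more, 5.73% were above and 5.91% below. The oocyte markers Gdf9, Ooep, Npm2, Zar1 and H1foo were also above RFP without overlap, and the other oocyte markers overlapped. In GFP Low versus RFP, Mos and Cdc20 were below without overlap and 0 of 9 above, beside 3.32% and 2.9% of 6076 genes. In GFP High versus GFP Low, Mos, Ccnb2 and Cdc20 were above and 0 of 9 below, beside 5.36% and 6.17% of 6062 genes. The full order of GFP High above RFP above GFP Low, with no overlap at either step, was met by 3 of 6065 genes, or 0.0495%, and these were Mos, Cdc20 and Klc1. The other 5 orders of the groups were met by 1 to 9 genes each and by 0 of the 9 described here. This count was chosen after the values of Mos and Cdc20 were seen and is a description only. With libraries scaled by their totals alone, Mos and Klc1 met the order and Cdc20 did not.

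Ratios within a library do not depend on the scaling between libraries, but their size depends on the gene lengths used, here the deposited ones. With the principal transcript, Ccnb2 stood at 75.7 and Ccnb1 at 148.2 CPM per kb, and Fzr1 at 32.1 and Cdc20 at 24.6. The ratio of Ccnb2 to Ccnb1, per kb, was 1.02, 1.05 and 0.886 for GFP High 1, 2 and 3, 0.834, 0.710 and 0.858 for GFP Low and 0.808, 0.773 and 0.879 for RFP. Every GFP High ratio was above every other ratio, the closest pair being GFP High 3 and RFP 3. Reads on the Ccnb1 pseudogene copies were left out of this ratio. They came to 9.94% of the Ccnb1 value in GFP High 2, 3.60% in GFP High 3 and 4.34% in RFP 3. The ratio with the copies added was not tested. Across the 3 groups the exact permutation test over 1680 assignments of the libraries gave p = 0.0571, or 0.114 after Benjamini-Hochberg adjustment over the 2 ratios tested, where the smallest p the design allows is 0.00357. For GFP High versus GFP Low and against RFP the exact p was 0.1, the smallest that 3 libraries against 3 can give, with log2 differences of 0.30 and 0.26. With single libraries left out, the unadjusted exact p across the 3 groups ran from 0.0357, without GFP High 3, to 0.168, without GFP High 2.

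The ratio of Fzr1 to Cdc20 was also taken per kb of the deposited length. It was 1.00, 1.07 and 0.790 for GFP High, 0.851, 1.12 and 1.09 for GFP Low and 0.866, 0.729 and 0.876 for RFP. The groups overlapped in each pair, and the exact permutation test across the groups gave p = 0.254 before and after adjustment over the 2 ratios.

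**Figure D4:**
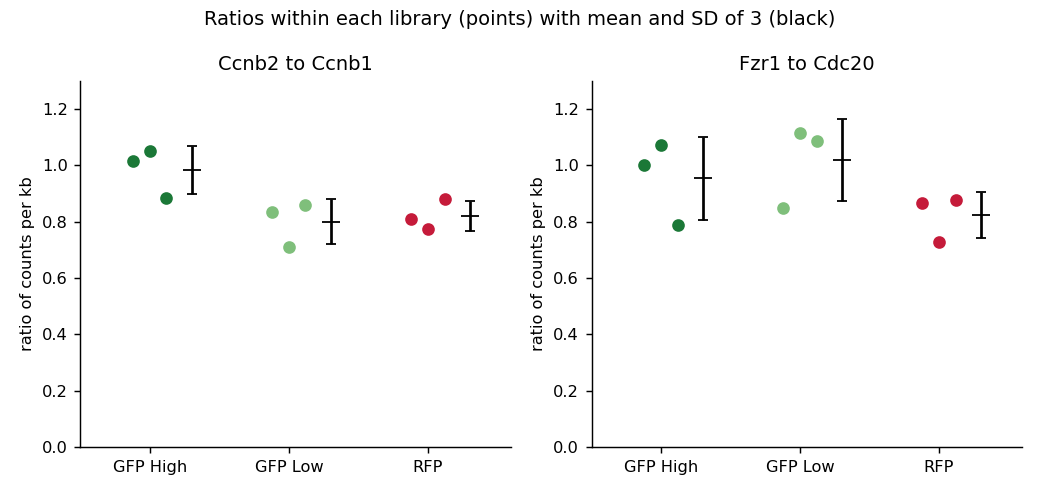
Ratio of counts per kb of the deposited gene length within each library (points), with the mean and SD of 3 libraries in black. The left panel shows Ccnb2 to Ccnb1 and the right panel Fzr1 to Cdc20. The GFP High points of the left panel lie at 0.886 to 1.05, above all others, and the groups of the right panel overlap.

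The profiles of Ccnb1 and Mos over the 9 libraries were set beside those of 6064 genes of 20 CPM or more, by the root mean square difference of centred log2 CPM. The profiles nearest to Ccnb1 were those of Dbf4 at 0.0380, Atp6v1c1 at 0.0411 and Suds3 at 0.0438, where the median gene was at 0.181. The nearest of the other 8 genes was Map2k1 at 0.130, in place 1129. Around its own mean Ccnb1 had a root mean square of 0.0854, beside 0.188 for Mos. For Mos the nearest were Tma16 at 0.0867, Ddx41 at 0.0871 and Nck1 at 0.0886, with the median gene at 0.250. Ccnb2 was in place 30 from Mos at 0.110 and Cdc20 in place 48 at 0.116. Map2k1 was in place 331, Fzr1 in 359, Cdk1 in 1168, Ccnb1 in 1934, Fbxo43 in 3428 and Ccnb3 in 5235. These distances describe the same 9 libraries and carry no test.

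The wider pathway was read from 6 lists, and 0 genes of any list were called in any comparison. Of the genes that activate, inhibit or bind Cdk1 and its relatives, 14 of 16 were tested, with 8 higher and 6 lower in GFP High versus RFP, 9 and 5 in GFP Low versus RFP, and 8 and 6 in GFP High versus GFP Low. The most abundant were the Cdk1-binding subunit gene Cks2 at 219.9 CPM per kb, Wee2, the oocyte kinase that inhibits Cdk1, at 112.5, and Cks1b at 40.2. Cks1b had the smallest p against GFP Low (log2 difference 0.43, SE 0.18) and against RFP (0.34, SE 0.17), and Cdk2 in GFP Low versus RFP (-0.19, SE 0.20). Of 11 genes of the Mos and MAP kinase pathway, 5 were higher and 6 lower in GFP High versus RFP, 3 and 8 in GFP Low versus RFP, and 6 and 5 in GFP High versus GFP Low. Mapk3, which encodes ERK1, stood at 77.2 CPM per kb and Cdk2ap2 at 22.7. Cdk2ap2 had the smallest p of that list in the comparisons of GFP High, at 0.55 (SE 0.20) against RFP and 0.42 (SE 0.20) against GFP Low on the log2 scale.

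Of 17 subunits and E2 enzymes of the anaphase-promoting complex, 13 were higher and 4 lower in GFP High against both other groups, with a median log2 difference of 0.15 against RFP and 0.12 against GFP Low, and 9 were higher and 8 lower in GFP Low versus RFP. Ube2c, the E2 that starts ubiquitin chains for this complex, was at 186.1 CPM in GFP High and 132.5 CPM in RFP without overlap, a log2 difference of 0.49 (SE 0.14) with an adjusted p of 0.997 by edgeR. It was the most abundant of the list at 59.7 CPM per kb, before the subunit Anapc5 at 55.1 and Ube2s, the chain-extending E2, at 54.1. Ube2d1 had the smallest p of the list in GFP High versus GFP Low (log2 difference 0.69, SE 0.25) and in GFP Low versus RFP (-0.28, SE 0.18).

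The medians of the remaining 3 lists lay between -0.06 and 0.04 on the log2 scale. Of 15 tested genes for Emi2 control and exit from arrest, 8, 8 and 7 were higher in GFP High versus RFP, GFP Low versus RFP and GFP High versus GFP Low, with 0 at an unadjusted p under 0.05. Skp1a at 1080 CPM per kb and the calmodulin gene Calm2 at 758.2 were its most abundant, and the calcium channel gene Itpr1 differed by -0.22 (SE 0.12) between GFP High and RFP and -0.16 (SE 0.11) between GFP High and GFP Low. Calm2 had the smallest p of that list in GFP Low versus RFP, at 0.07 (SE 0.08). Of the Greatwall and PP2A genes, which control the phosphatase that opposes Cdk1, 7 of 17, 7 of 18 and 9 of 17 were higher, led in level by the Greatwall kinase gene Mastl at 60.5 CPM per kb, Ppp2r5d at 30.6 and Cip2a at 29.7. The PP2A subunit gene Ppp2r2b differed by 0.44 (SE 0.15) between GFP High and RFP and 0.20 (SE 0.13) between GFP Low and RFP, and Ppp2r5b by -0.44 (SE 0.24) between GFP High and GFP Low. Of 21 cytoplasmic polyadenylation genes, 7, 9 and 8 were higher, with Btg4 at 546 CPM per kb, Zar1 at 239 and Fip1l1 at 234 the most abundant. Btg4, an adaptor for removal of poly-A tails, differed by 0.26 (SE 0.10) between GFP High and GFP Low, Zar1, which binds stored messengers and is also an oocyte marker here, by 0.20 (SE 0.08) between GFP High and RFP, and Fip1l1 by 0.09 (SE 0.06) between GFP Low and RFP. All differences are on the log2 scale.

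**Figure D5:**
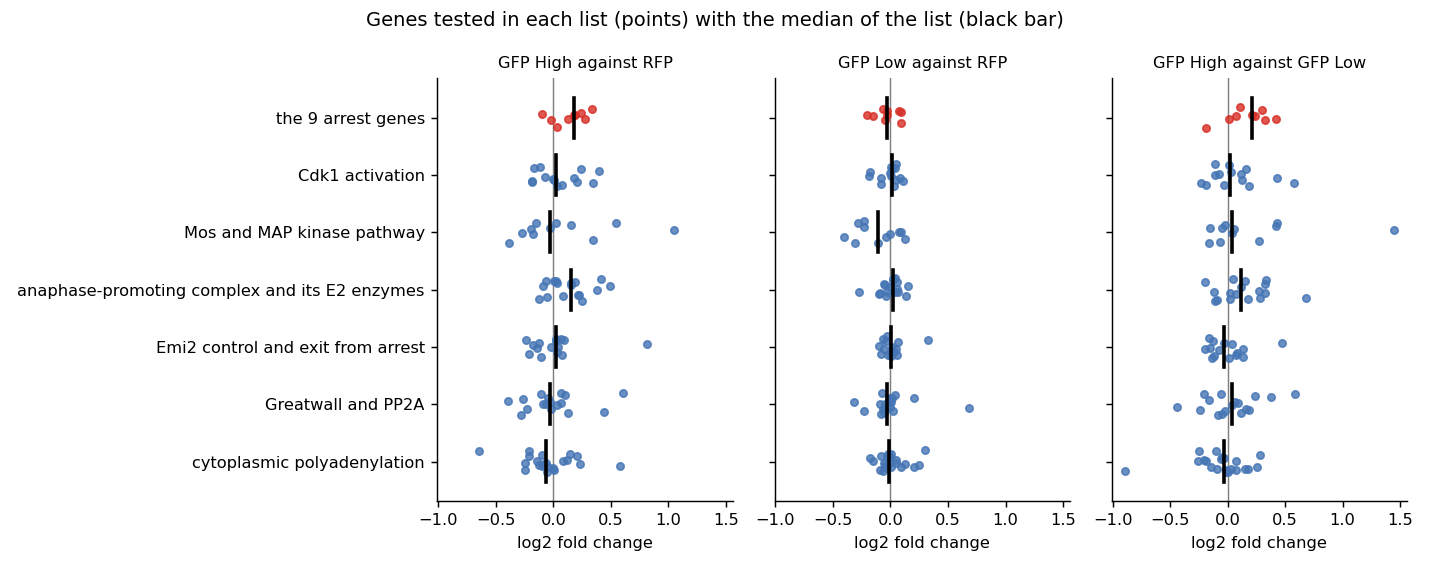
Log2 difference of each tested gene (points) and the median of its list (black bar) for the 9 arrest genes (red) and the 6 pathway lists (blue) in the 3 comparisons. The medians of the 9 genes are 0.18, -0.03 and 0.21, and those of the anaphase-promoting complex list 0.15, 0.02 and 0.12.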

How the data were processed

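The authors deposited, per pair of groups, a table with the raw read count of each gene in 6 libraries. Reads were handled with fastp, HISAT2 2.0.5, featureCounts 1.5.0-p3 and DESeq2 1.20.0 on mm10, per the submitters' processing notes. The tables also hold a normalised signal, which is the deposited count divided by a size factor. They hold deposited FPKM values, used in an alternative for the ratios, and the authors' deposited log2 fold change and p-value, quoted where named. The 3 tables were joined by gene identifier, with 178 genes that a table lacked set to 0 there.

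Counts were tested with edgeR 4.0.16 in R 4.3.3 (filterByExpr, TMM, glmQLFit and glmQLFTest) on the 6 libraries of each pair, and adjusted by the Benjamini-Hochberg method over all genes at 0.05. DESeq2 1.42.0 and limma 3.58.1 (voom) were alternatives. Standard errors came from the F statistic. CPM used TMM factors over 9 libraries, and ratios a pseudocount of 0.5 count. The scripts were tested on simulated data. Reads carry no molecular identifiers.

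The genes and lists were chosen with earlier results of these data known. The principal transcript length, the sum without Nr5a2 and the counts by group order were added after seeing the data. All 9 genes were named. From each pathway list the text names the 3 genes with the highest CPM per kb, any called gene and the smallest p per comparison. Some genes that this rule names are not reported here. Beside Ccnb1 and Mos it names the 3 nearest profiles and any near-identical copies. Plcz1, Tent2, Hbb-bs, Hba-a1, Lyz2 and Foxj1 were not matched by symbol and not analysed here. Of 5 blood markers 2 were matched, at a summed level of at most 1.39 CPM, and of 5 oviduct markers 4, at 3.31 to 10.7 CPM.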

Additional observations from a re-analysis of the deposited data

How the results depend on the processing

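None of the settings run called any of the 9 genes. Under other tests, scalings, filters and the block, 241 fitted log2 differences of these genes kept their sign and 2 did not. The exceptions were Fbxo43 in GFP High versus RFP at -0.0121 with limma-voom and at -0.0025 with the replicate block. With a library left out, 146 kept their sign and 16 did not. Among those genes, in GFP High versus RFP, Ccnb1 ran from -0.1156 to 0.0349, Fbxo43 from -0.1935 to 0.2119 and Ccnb3 from -0.1969 to 0.0716. In GFP Low versus RFP, Ccnb2 ran from -0.1088 to 0.0114, Map2k1 from -0.0868 to 0.0428, Fbxo43 from -0.1400 to 0.0176, Ccnb3 from -0.0007 to 0.1427, Cdk1 from -0.0007 to 0.1182 and Ccnb1 from -0.0686 to 0.0184. In GFP High versus GFP Low, Fbxo43 ran from -0.1497 to 0.2550 and Ccnb1 from -0.0868 to 0.0657. The cause was not tested.

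The count of all genes called depended on the method. It was 2, 3 and 0 in GFP High versus RFP, GFP Low versus RFP and GFP High versus GFP Low by edgeR. It was 12, 10 and 4 by DESeq2, 16, 34 and 16 with no low-count filter, and 1 in each of the comparisons with RFP by limma-voom. With a library left out it ran from 0 to 2 in GFP High versus RFP, being 0 when GFP High 1 or 3 or RFP 2 or 3 was left out, and from 0 to 1 in GFP High versus GFP Low, being 1 without GFP High 3. Libraries with the same number did not deviate together (correlations -0.113 to 0.116), and the replicate block gave 4 called genes in GFP High versus RFP, 3 in GFP Low versus RFP and 0 in GFP High versus GFP Low. Under the block the exact p of the Ccnb2 to Ccnb1 ratio was 0.0833. It was 0.0357 to 0.1679 with a library left out. With 3 libraries per group, the 95% intervals of the 9 genes leave differences of up to 0.69 on the log2 scale undecided.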

Other observations

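GFP High 2, the library with the fewest detected genes, stood at an end of the range for several of the 9 genes. It had the highest level of the 9 libraries for Mos (91.0 CPM), Fbxo43 (141.7 CPM), Ccnb2 (134.4 CPM) and Fzr1 (122.5 CPM), and the lowest for Ccnb3 (44.2 CPM). It also had the largest share of reads on the Ccnb1 pseudogene copies, 35.04 CPM against 13.8 to 20.9 CPM in the other libraries.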
